A study of Mus musculus with 6 samples.

Results

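Genes of fatty acid oxidation and targets of the peroxisome proliferator-activated receptors (PPARs) were read in lung RNA of mice that developed EGFR-driven lung cancer on a high-fat diet (LC-HFD) or on a regular diet (LC-RD). The list held 35 genes, taken as textbook enzymes of the pathway, the receptors themselves and their classical targets. A gene was measured by a probe set (a group of short probes against 1 transcript) that the array's annotation assigns to that gene alone, and where a gene had several, by the one with the highest mean over the 6 arrays. Under this rule 33 of the 35 genes were measured, of 18193 genes on the array in all, while Cpt1b and Ucp2 were not analyzed here. The array carried 62 probe sets for these 33 genes, and 20 of the genes had more than 1.

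Both groups were male mice carrying CC10-rtTA and tet-O-EGFR-L858R, and both received doxycycline, which switches on the mutant EGFR, so that diet was the intended difference. The CC10 promoter, known from airway club cells, drives rtTA in the respiratory epithelium, and the RNA came from whole lung, in which tumor and normal tissue were not separated. The mice were 6 to 8 weeks old by the methods and 6 weeks old by the outline of the experiment, in which HFD or RD was fed alone (2 weeks) and then with doxycycline added (8 weeks). The labels give another schedule, with diet until 8 weeks and doxycycline for 7 weeks. The drug was dosed at 625 ppm in food and at 2 mg/ml in water sweetened with 1% sucrose, and fat made up 60% of the energy of HFD. Each group had 3 mice with 1 array per mouse.

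Fatty acids enter mitochondria as carnitine esters, and β-oxidation then shortens them by repeated rounds of dehydrogenation, hydration, a second dehydrogenation and thiolysis, with the electrons passed on through the electron transfer flavoprotein. Peroxisomes run a parallel pathway for very long-chain and branched fatty acids. PPARα, PPARδ and PPARγ are nuclear receptors that bind fatty acids and, with a retinoid X receptor, raise transcription of many of these enzymes. In the lung, PPARγ is known as a defining factor of alveolar macrophages, and alveolar type II cells handle large amounts of lipid to make surfactant.

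In LC-HFD lungs the genes did not move together. Measured as a difference of log2 values (LC-HFD minus LC-RD, so that 1 unit is a 2-fold change), higher levels were found in 8 of the 33 genes and lower levels in 3, while 22 did not pass at an adjusted p under 0.05 in limma (Benjamini-Hochberg over 45037 probe sets). The largest increases were in Pdk4 (1.92-fold), Ppard (1.81-fold), Hadha (1.54-fold) and Angptl4 (1.44-fold), and the largest decrease was in Ehhadh (1.84-fold). Over all genes of the array 11.1% were higher and 16.2% were lower, against 24.2% and 9.09% of the 33 genes. Among the 9084 genes that averaged 6 log2 units or more, 12.1% were higher and 23.4% lower. The median difference was 0.04 over the 33 genes and 0.02 over all genes, and the median size of a difference, whatever its sign, was 0.19 and 0.20. By brightest probe set, none of the 33 genes both passed and changed over 2-fold, while 0.605% of all genes did so upward and 1.07% downward. Dimmer probe sets of Ppargc1a did both, lower by 2.09-fold and 2.13-fold. After quantile normalization the counts were 10 higher and 2 lower, and centering each array on its median also gave 10 and 2. Over the array, 5068 probe sets were higher and 5425 lower after quantile normalization, and 5612 and 5691 after centering. The main fit had 5111 and 6139. When 1 array was left out, 4 to 6 genes were higher and 1 to 3 lower. Over the array, 2518 to 5469 probe sets were then higher and 3245 to 6062 lower. Pdk4, Ppard, Hadha, Angptl4 and Ehhadh passed whichever array was left out. The other 6 genes that passed, all with differences under 0.5, lost their call without LC-HFD replicate 3 and without each of the LC-RD replicates 1, 2 and 3, and some of them without the others.

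The 3 LC-HFD arrays all lay above the 3 LC-RD arrays in 14 of the 33 genes and all below them in 9 (42.4% and 27.3%). Over all genes these shares were 22.3% and 26.8%. Among genes averaging 6 log2 units or more, as 30 of the 33 did, they were 23.4% and 40.9%. Counted by probe set, 10 of 62 were higher and 8 lower (16.1% and 12.9%), next to 11.3% and 13.6% of the 45037 probe sets tested, so the choice of 1 probe set per gene bears on the counts.

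**Figure D1:**
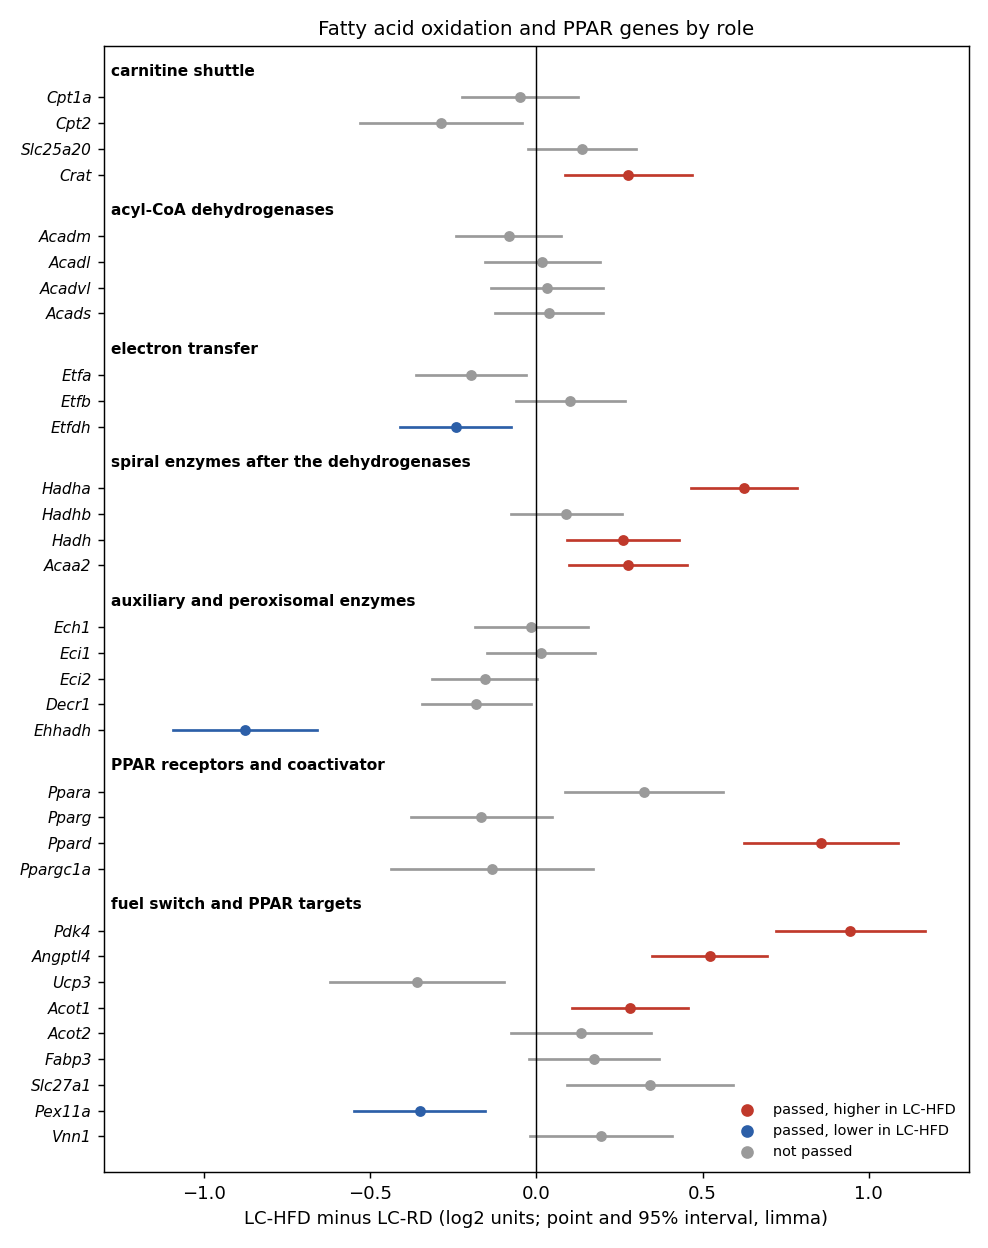
Difference between LC-HFD and LC-RD (x axis, log2 units) for each of the 33 genes, grouped by role; points are estimates and bars 95% intervals from limma with 3 mice per group, colored by call. Only Pdk4, Ppard, Hadha, Angptl4 and Ehhadh lie further than 0.5 from 0 and pass, and the 4 acyl-CoA dehydrogenases sit within 0.1 of 0.

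All RNA was from bulk lung, where fewer cells of a type and less RNA per cell cannot be told apart. The arrays were alike in overall level (median log2 value 4.78 to 4.83), and alveolar type II and type I cell markers were high on all of them, with mean log2 values of 11.5 to 11.7 and 10.6 to 10.8. Control probe sets differed with diet. The hybridization controls, spiked in at equal amounts by design, averaged 11.5 in LC-HFD and 10.0 in LC-RD, while the poly-A controls were 0.42 lower in LC-HFD and the 18S rRNA probe sets 4.92 lower. The exact permutation p was 0.1 for each, the smallest that 3 against 3 arrays can give. Beta-actin differed by 0.03 and Gapdh by 0.24 (exact permutation p = 0.2 and 0.1). Array handling and diet cannot be told apart in these samples.

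The carnitine shuttle showed no shared direction, with 1 gene higher, none lower and 3 not passing. Cpt1a, the liver-type carnitine palmitoyltransferase that commits long-chain fatty acids to mitochondrial oxidation, had log2 values of 8.89, 8.80 and 8.89 in LC-HFD and 8.95, 8.94 and 8.84 in LC-RD. The groups overlapped. The difference was -0.05 (SE 0.074, adjusted p = 0.644 in limma, n = 3 per group), and its 95% interval ran from -0.22 to 0.12. Crat, which buffers acetyl-CoA as acetylcarnitine, was higher by 0.28 (adjusted p = 0.046 in limma) on its brightest probe set. A Crat probe set of nearly equal brightness had 0.14 and a dimmer probe set 0.15, and neither passed (adjusted p = 0.269 and 0.328 in limma). Cpt2, the inner-membrane partner of the shuttle, had -0.29 (adjusted p = 0.0835 in limma) and Slc25a20, the carnitine-acylcarnitine carrier, 0.14 (adjusted p = 0.185). The array's probe set for the muscle form Cpt1b also reads Chkb and Gm44502, so its difference of 0.43 (adjusted p = 0.064 in limma) was assigned to none of these genes.

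The acyl-CoA dehydrogenases, which carry out the first step of each round, were the most uniform group. Acadm, the medium-chain enzyme, had log2 values of 9.28, 9.26 and 9.25 in LC-HFD and 9.34, 9.38 and 9.32 in LC-RD. The LC-HFD arrays all lay below the LC-RD arrays, but by a difference of only -0.08 (SE 0.0672, adjusted p = 0.388 in limma, n = 3 per group). Acadl, Acadvl and Acads, the long-chain, very long-chain and short-chain enzymes, had differences of 0.02, 0.03 and 0.04. Of these 4 genes 0 passed in limma, and 0 had an unadjusted p under 0.05. Their 95% intervals lay between -0.24 and 0.20, so a larger change in either direction was outside the interval of each.

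The genes that take electrons from these dehydrogenases differed more. Etfdh, the ubiquinone oxidoreductase at the end of that chain, was lower by 0.24 (adjusted p = 0.0453 in limma). The gene's other probe set was dim, with mean log2 values of 2.08 and 2.25, and had -0.17 (adjusted p = 0.297 in limma). Etfa and Etfb encode the paired subunits of the electron transfer flavoprotein and had -0.20 and 0.10, neither of which passed (adjusted p = 0.0809 and 0.31).

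The clearest increase within the mitochondrial spiral itself was in Hadha. Hadha encodes the α subunit of the mitochondrial trifunctional protein, which holds the hydratase and long-chain 3-hydroxyacyl-CoA dehydrogenase activities. Its log2 values were 9.05, 9.06 and 9.0 in LC-HFD and 8.42, 8.44 and 8.39 in LC-RD. The groups did not overlap and lay many SDs apart (9.04 ± 0.0338 against 8.42 ± 0.0266, SD, n = 3 per group), a difference of 0.62 (SE 0.0681, adjusted p = 0.00142 in limma).

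Hadhb encodes the β subunit of the same complex, which holds the thiolase activity. Its values were 9.22, 9.26 and 9.19 in LC-HFD and 9.18, 9.07 and 9.14 in LC-RD. The groups lay apart by a narrow margin and the difference of 0.09 did not pass (adjusted p = 0.382 in limma, 95% interval -0.08 to 0.26). The increase in Hadha exceeded that in Hadhb by 0.53 (SE 0.041), with no overlap between groups and an exact two-sided permutation p of 0.1, the smallest possible here. The other probe sets of Hadhb had -0.25 and -0.31 and did not pass.

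Hadha and Hadhb lie head to head on mouse chromosome 5, with 272 bases between their first bases in RefSeq (GRCm38.p6), so that the sequence upstream of one gene is largely the sequence upstream of the other. It is shown because the pair shared this stretch while the differences of the 2 genes were unlike in size. The 250 bases before the first base of Hadhb (chr5:30155003-30155252, plus strand, no capitals because no motif searched here was marked in it) read, 5′ to 3′, toward Hadhb and away from Hadha:
Hadha-Hadhb: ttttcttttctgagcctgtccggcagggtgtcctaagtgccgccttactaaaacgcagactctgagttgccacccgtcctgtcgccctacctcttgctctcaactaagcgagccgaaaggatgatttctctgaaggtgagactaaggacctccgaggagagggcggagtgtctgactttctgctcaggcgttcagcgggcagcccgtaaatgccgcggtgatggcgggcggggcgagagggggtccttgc

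The next enzymes were higher by small amounts that depended on the probe set. Hadh, the short-chain 3-hydroxyacyl-CoA dehydrogenase, was higher by 0.26 (adjusted p = 0.0362 in limma) on its brightest probe set, whose probes can also match other transcripts by the array maker's naming. The gene's next probe set, of mean log2 value 9.63 in LC-HFD and 9.73 in LC-RD, had -0.10 and did not pass. Acaa2, the mitochondrial 3-ketoacyl-CoA thiolase, was higher by 0.28 (adjusted p = 0.0361 in limma) on 1 probe set and lower by 0.42 (adjusted p = 0.00666) on another. It was the 1 gene of the 33 whose probe sets passed in both directions, and the mean over its 3 probe sets differed by 0.00 (adjusted p = 0.968). The count of 8 higher genes takes Acaa2 by its brightest probe set, and 7 of the other 32 genes were higher.

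**Figure D2:**
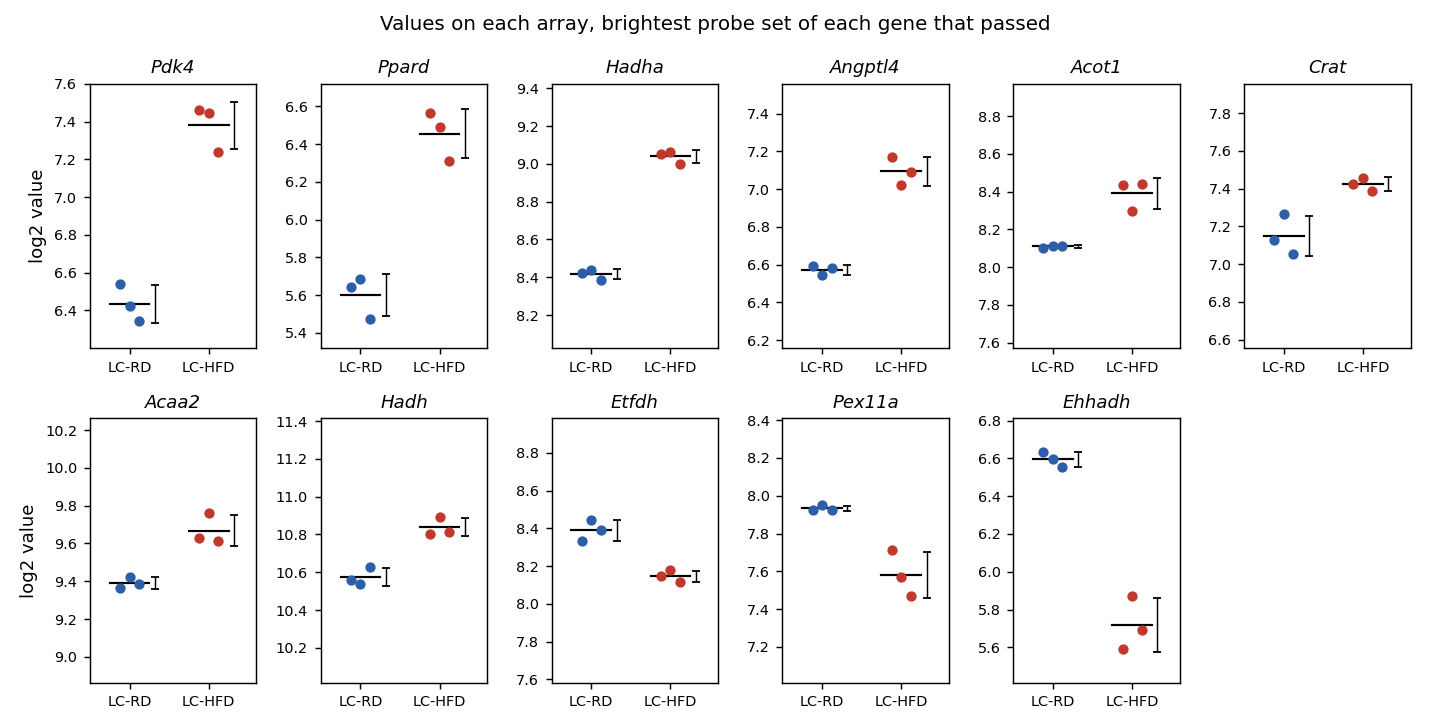
Log2 value on each array (points) for the 11 genes that passed, with the group mean (line) and SD (bar) of 3 mice; every panel spans the same 1.4 log2 units. The groups lie apart in all 11 panels, by the widest margins in Pdk4, Ppard, Hadha and Ehhadh.

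Auxiliary and peroxisomal enzymes gave the largest decrease. Ehhadh is the peroxisomal bifunctional enzyme and a classical PPARα target in liver. Its log2 values were 5.59, 5.87 and 5.69 in LC-HFD and 6.63, 6.6 and 6.55 in LC-RD. All LC-HFD arrays were below all LC-RD arrays (5.72 ± 0.144 against 6.59 ± 0.0402, SD, n = 3 per group), a difference of -0.88 (SE 0.0918, adjusted p = 0.00123 in limma). Eci1, Eci2, Decr1 and Ech1, which bring double bonds of unsaturated fatty acids into a form the spiral can use, had 0.01, -0.16, -0.18 and -0.01, and none passed.

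Of the receptors, Ppard was higher. Ppard encodes PPARδ, the most widely expressed of the 3 receptors. Its values were 6.57, 6.49 and 6.31 in LC-HFD and 5.65, 5.68 and 5.47 in LC-RD. The groups did not overlap (6.46 ± 0.131 against 5.6 ± 0.112, SD, n = 3 per group), with a difference of 0.86 (SE 0.0988, adjusted p = 0.00173 in limma). The gene's other probe set was dim, with mean log2 values of 3.47 and 3.34, and had 0.13 (adjusted p = 0.494), and a probe set annotated to both Ppard and 1810013A23Rik had 0.19 (adjusted p = 0.327) with overlapping groups. The increase in Ppard thus rests on 1 probe set. The mean over the gene's own probe sets, which includes that 1 and so is no separate evidence, gave 0.49 and passed.

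Ppara encodes PPARα, the main receptor of the fasting response in liver. Its values were 5.05, 5.03 and 5.24 in LC-HFD and 4.64, 4.90 and 4.81 in LC-RD. The groups lay apart, and the difference of 0.32 missed the threshold (SE 0.101, adjusted p = 0.0548 in limma, n = 3 per group). All 3 of its probe sets had a positive difference, from 0.14 to 0.38, and none passed.

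Pparg encodes PPARγ. Its values were 6.42, 6.41 and 6.37 in LC-HFD and 6.61, 6.68 and 6.41 in LC-RD. The groups overlapped, and the difference was -0.17 (SE 0.0905, adjusted p = 0.216 in limma, n = 3 per group, 95% interval -0.38 to 0.05). Of 13 alveolar macrophage markers measured, Pparg among them, 3 were higher and 2 lower (23.1% and 15.4%, against 11.1% and 16.2% of all genes). Their summed log2 level was 13.8 on the LC-HFD arrays against 13.7 in LC-RD. Marco, Fabp4 and Chil3 were higher, by 0.77, 0.32 and 0.29, and Atp6v0d2 and Trim29 were lower, by 0.43 and 0.29. The probe sets of Fabp4 ranged from -0.67 to 0.32, and 1 of the dimmer ones passed as lower. The median difference of the 13 markers was -0.07, and their mean log2 values overlapped between groups (8.45 to 8.53 and 8.45 to 8.5). Their part in the value of Pparg was not tested.

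Ppargc1a encodes PGC-1α, a coactivator that promotes mitochondrial biogenesis. On the brightest of its 5 probe sets the values were 6.0, 5.59 and 5.73 in LC-HFD and 5.99, 5.99 and 5.73 in LC-RD. The groups overlapped, and the difference was -0.13 (SE 0.129, adjusted p = 0.472 in limma, n = 3 per group). The other 4 probe sets, all dimmer, had -0.39, -1.06, -1.09 and -0.53, and the last 3 of these passed (adjusted p = 0.0115, 0.00175 and 0.00544). The rule for choosing probe sets thus counted Ppargc1a among the genes that did not pass, although 3 of its 5 probe sets were lower and all 5 differences were negative.

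**Figure D3:**
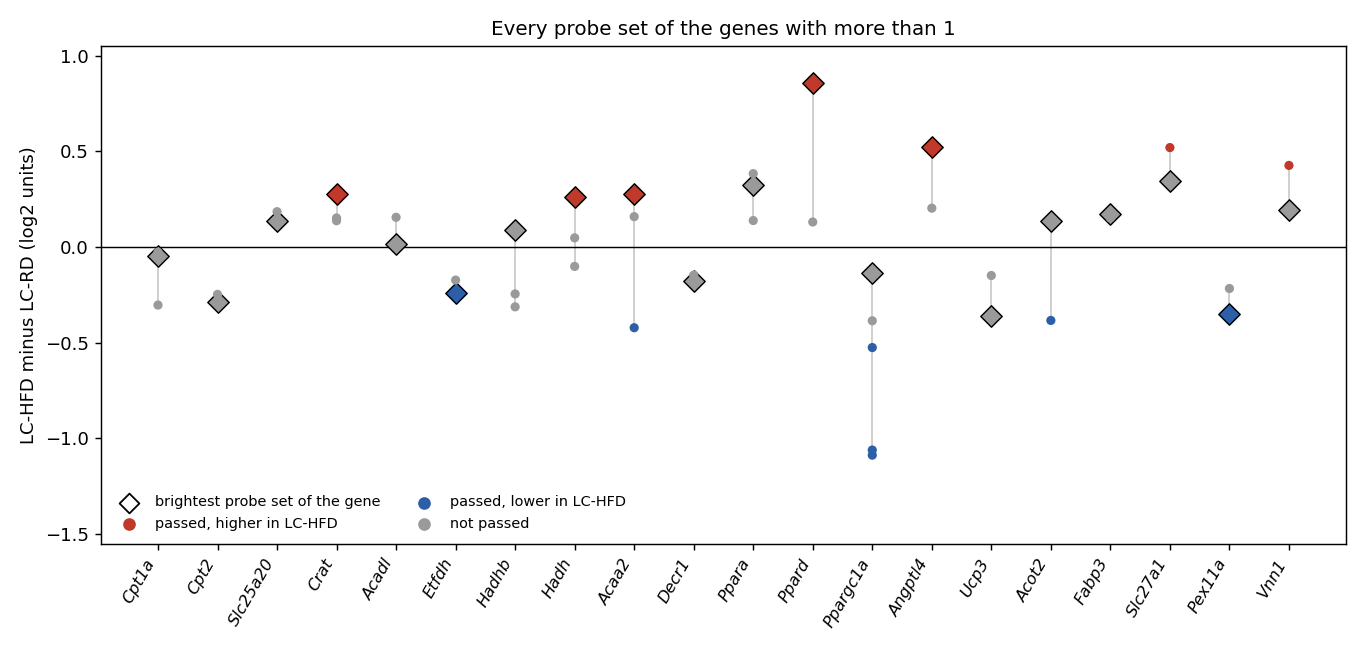
Difference between LC-HFD and LC-RD (y axis, log2 units) for every probe set of the 20 genes with more than 1; diamonds mark the brightest probe set of a gene and colors the call. Probe sets of Acaa2 pass in both directions, 3 dimmer probe sets of Ppargc1a are lower by 0.53 to 1.09, and dimmer probe sets of Slc27a1 and Vnn1 are higher where the brightest did not pass.

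Among genes of the fuel switch and other PPAR targets, 3 of 9 were higher and 1 was lower (33.3% and 11.1%, against 11.1% and 16.2% of all genes). The 3 include Acot1, whose value is uncertain as to gene. Pdk4 encodes pyruvate dehydrogenase kinase 4, which switches off the entry of pyruvate into the citric acid cycle and is a target of PPARα and PPARδ as well as of the glucocorticoid receptor and FOXO factors. Its values were 7.46, 7.45 and 7.24 in LC-HFD and 6.54, 6.42 and 6.34 in LC-RD. The groups did not overlap (7.38 ± 0.125 against 6.44 ± 0.0999, SD, n = 3 per group), and the difference of 0.94 was the largest of the 33 genes (SE 0.0949, adjusted p = 0.00107 in limma). Angptl4 encodes a secreted inhibitor of lipoprotein lipase. Its values were 7.17, 7.02 and 7.09 in LC-HFD and 6.59, 6.54 and 6.58 in LC-RD. Again no LC-HFD array overlapped LC-RD (7.09 ± 0.0765 against 6.57 ± 0.0253, SD, n = 3 per group), with a difference of 0.52 (SE 0.0741, adjusted p = 0.00358 in limma). Its other probe set, with mean log2 values of 2.02 and 1.82, had 0.20 and did not pass.

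The acyl-CoA thioesterases Acot1 and Acot2, which release free fatty acids from CoA in cytosol and mitochondria, are near-identical neighbors, so their probe sets may read both. The probe set of Acot1 was higher by 0.28 (adjusted p = 0.0325 in limma). Of the probe sets of Acot2, the brightest had 0.13 (adjusted p = 0.301) and a dimmer one was lower by 0.38 (adjusted p = 0.0127). A probe set annotated to both genes, and so outside the 62, was higher by 0.50. The values for Acot1 and Acot2 are therefore uncertain as to gene.

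Pex11a, a peroxisome proliferation factor, was lower by 0.35 (adjusted p = 0.0228 in limma), and its other probe set had -0.22 (adjusted p = 0.0851) and did not pass. The fatty acid transporter Slc27a1 had 0.34 (adjusted p = 0.0545), and its other probe set, of nearly equal brightness, was higher by 0.52 (adjusted p = 0.00864). Vnn1, a pantetheinase, had 0.19 (adjusted p = 0.157), and its dimmer probe set was higher by 0.43 (adjusted p = 0.0182). Fabp3, the heart-type fatty acid binding protein, had 0.17 (adjusted p = 0.169).

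Ucp3, a mitochondrial carrier typical of muscle, had -0.36 (adjusted p = 0.0529 in limma), with no overlap between groups. Markers of muscle and fat were read beside these genes. Of 20 cardiac muscle markers, which in lung RNA can come from pulmonary veins, 0 were higher and 4 lower (20%, near the 16.2% of all genes, with a median of -0.09). The lower ones were led by Myl7 at -1.36 and Actc1 at -0.67, and the summed log2 level was 8.98 to 9.15 in LC-HFD and 9.18 to 9.27 in LC-RD. Of 8 brown adipocyte markers, Ppargc1a among them, 3 were lower and 0 higher (37.5% lower, against 16.2% of all genes). Their summed levels were 8.22 to 8.31 in LC-HFD and 8.45 to 8.5 in LC-RD, and 4 of the 8 had mean log2 values under 4. Of 10 white adipocyte markers 3 were higher and 0 lower (30% higher, against 11.1% of all genes). Among the higher ones were Adipoq, by 0.70 at mean log2 values of only 3.32 and 2.62, and Fabp4, whose probe sets disagreed. The mean log2 value of the 10 white adipocyte markers was 5.42 to 5.46 in LC-HFD against 5.18 to 5.26 in LC-RD, with 90% of the differences positive. Their summed level, in which Cd36 (-0.12, not passed) is the brightest gene, overlapped between groups (11.8 and 11.8 to 11.9). Of 12 skeletal muscle markers 1 was higher (8.33%, against 11.1% of all genes) and 0 lower. The part of these cell types in Ucp3, Fabp3, Ppargc1a and Angptl4 was not tested.

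The promoters were searched for the PPAR response element, written as 2 copies of AGGTCA in the same orientation with 1 base between them, on both strands. RefSeq promoters (GRCm38.p6, 250 bases before to 50 after each gene start) were given for 28 of the 33 genes, and the unmatched ones were Crat, Acaa2, Decr1, Angptl4 and Vnn1. With up to 2 mismatches in the 12 fixed letters, 3 of the 28 held the element (10.7%), against 4.4% of the 27025 genes of the table. They were Slc25a20, Etfa and Ucp3, none of which passed. With 1 mismatch or none, 0 of the 28 held it, against 0.644% and 0.0481% of all genes. A single AGGTCA, part of that element, was in 5 of the 28 (17.9%) and in 18.1% of all genes. The search covers these windows alone.

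The promoters of Pdk4, the gene with the largest increase, and of Ucp3, which held a near match but did not pass, are shown side by side. Capitals mark the near match to the element, which began 51 bases before the start of Ucp3, and Pdk4 had no match with up to 2 mismatches. The stretches are the 250 bases before the start of Pdk4 (chr6:5496279-5496528, minus strand) and of Ucp3 (chr7:100472741-100472990, plus strand), 5′ to 3′ in the direction of the gene:
Pdk4: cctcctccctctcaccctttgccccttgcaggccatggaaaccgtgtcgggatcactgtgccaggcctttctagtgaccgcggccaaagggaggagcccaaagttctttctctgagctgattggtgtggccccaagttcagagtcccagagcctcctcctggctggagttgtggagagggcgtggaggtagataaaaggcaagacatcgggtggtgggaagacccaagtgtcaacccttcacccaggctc
Ucp3: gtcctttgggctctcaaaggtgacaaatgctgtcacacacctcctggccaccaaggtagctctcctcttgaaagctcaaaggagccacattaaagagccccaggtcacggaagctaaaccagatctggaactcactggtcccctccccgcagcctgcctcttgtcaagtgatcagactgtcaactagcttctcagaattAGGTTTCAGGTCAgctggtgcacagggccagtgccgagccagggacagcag

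Genes around the pathway, in 7 further lists read with the same fit, held more lower than higher genes in 5 of the 7 lists, as did the array as a whole. Over all genes 11.1% were higher and 16.2% lower, and among genes averaging 6 log2 units or more 12.1% and 23.4%. Of 11 genes of pyruvate dehydrogenase, the complex that Pdk4 inactivates, and its other regulators, 1 was higher and 3 lower (27.3% lower, median -0.15). Pdk2, a second kinase that inactivates the complex, was higher by 0.67, and Pdp1, the phosphatase that reactivates it, was lower by 0.66. Dld, the complex's dihydrolipoamide dehydrogenase, was lower by 0.44 on its brightest probe set and had 0.31 on another that did not pass.

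Of 24 further peroxisomal genes, 1 was higher and 7 lower (29.2% lower, median -0.17). Crot, which exports chain-shortened fatty acids from peroxisomes as carnitine esters, was lower by 0.74, the fatty acid transporter Abcd2 by 0.65 and the lyase Hacl1 by 0.52. A second probe set of Crot had 0.30 and did not pass. Of 26 further mitochondrial acyl-CoA enzymes, 2 were higher and 8 lower (30.8% lower, median -0.13), a share near that of the peroxisomal genes. Here Acad10 was higher by 0.70 and the acyl-CoA synthetase Acsf2 by 0.61, while Acad8, an enzyme of valine breakdown, was lower by 0.55. Another probe set of Acad10 had -0.09.

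Ketone body and acetate enzymes were lower in 4 of 5 genes (80%), with a median of -0.58. Acss1 and Acss2, the mitochondrial and cytosolic acetyl-CoA synthetases, were lower by 0.62 and 0.58, and the ketone body dehydrogenase Bdh1 by 0.59. The probe sets of Acss1 ranged from -0.62 to 0.19 and those of Bdh1 from -0.59 to -0.02, and in both genes the brightest was the 1 that passed. Of 22 genes of fatty acid uptake and activation, 3 were higher and 3 lower (13.6% each, median 0.00). The transporter Slc27a3 was higher by 0.63, and the fatty acid binding protein Fabp5 and the acyl-CoA binding protein Dbi were lower by 0.47 and 0.42.

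Other PPAR target genes moved in both directions, 9 of 35 higher and 7 lower (25.7% and 20%, median 0.04). Pltp, the phospholipid transfer protein, was higher by 1.03, while Rbp7, a retinol binding protein, was lower by 1.2 and G0s2, an inhibitor of triglyceride lipase, by 1.17. Of 27 PPAR partners and coregulators, 1 was higher and 7 lower (25.9% lower, median 0.01). The transcription factor Klf15 was lower by 0.76 and the coregulator Cited2 by 0.69, and Nrf1, a regulator of mitochondrial genes, was higher by 0.56. Another probe set of Cited2 had 0.35 and did not pass.

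**Figure D4:**
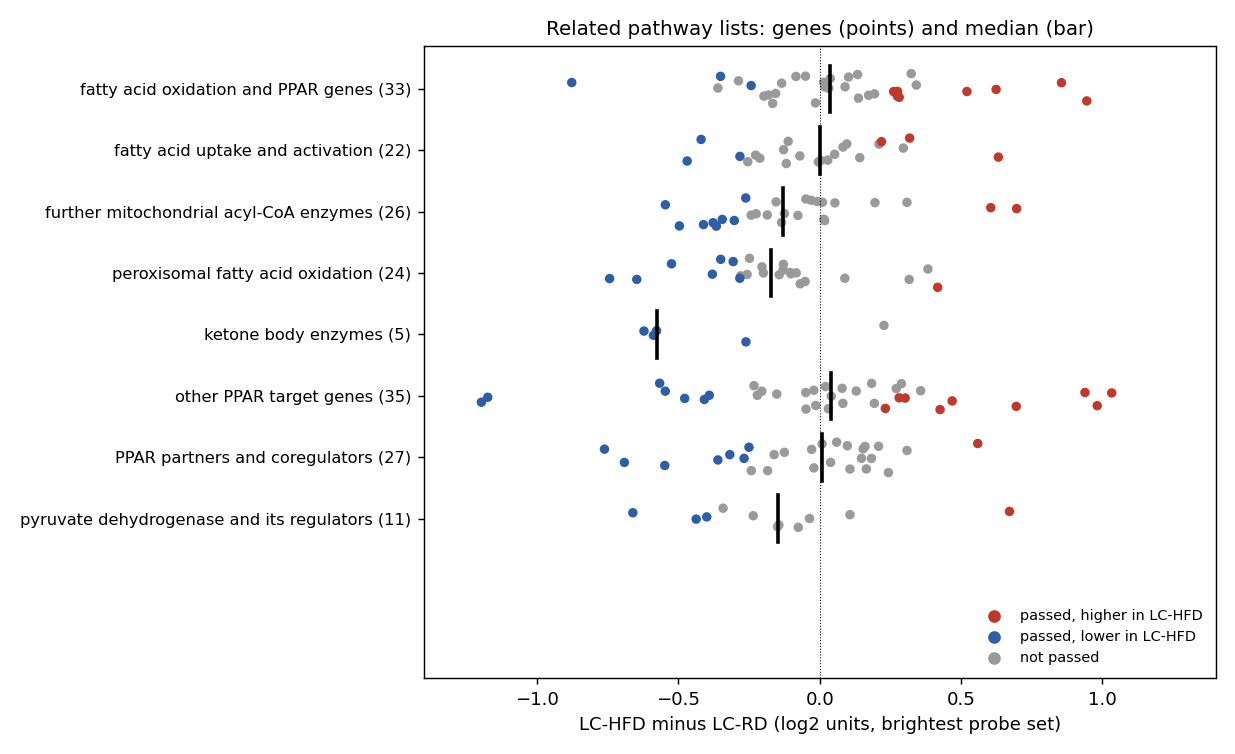
Difference between LC-HFD and LC-RD (x axis, log2 units) for the 33 genes and for the genes of 7 related lists (number of genes in brackets), with 1 point per gene, colored by call, and the list median as a bar. The medians of the peroxisomal, further mitochondrial and pyruvate dehydrogenase lists lie between -0.17 and -0.13, and that of the ketone body list at -0.58.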

How the data were processed

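The authors hybridized lung RNA to an Affymetrix mouse genome array, with 3 LC-HFD mice, 3 LC-RD mice and 1 array per mouse. The deposited table holds log2 values of 45101 probe sets on the 6 arrays, made with GCRMA per the submitters' processing notes, which corrects background by probe sequence and normalizes across arrays. Its version and settings were not given in the sources used. GCRMA pulls dim probe sets toward a floor, which shrinks their differences.

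The values were not normalized again. After 64 control probe sets were set apart, 45037 were fitted with limma 3.58.1 in R 4.3.3 (lmFit and eBayes, two-sided), with Benjamini-Hochberg adjustment over all of them. A probe set passed at an adjusted p under 0.05, and a 2-fold call needed also a log2 difference over 1. Genes were named through the platform's annotation, only where a probe set belongs to exactly 1 gene, with symbols updated through the Entrez ID for 34754 probe sets. Every gene of the list was named, with full statistics for those that passed with a log2 difference of at least 0.5 and for Cpt1a, Acadm, Hadha and the PPAR genes, and in each wider list up to 3 genes that passed with the largest difference. Marker genes (such as Marco, Myl7, Actc1 and Adipoq) were named after their values were seen. The members, lists and rules were chosen with earlier results of these data known.

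Precision was limited by 3 arrays per group. The fit was tested on simulated arrays with known shifts. Alternatives were the methods' t-test, quantile normalization, array weights, centering on the median, a variance trend with intensity (robust), filters at a mean log2 value of 4 or 6, a 3' minus 5' covariate, a replicate block, other probe set rules and each array left out in turn. Motifs were counted and figures drawn with Python 3.11.15, numpy 2.4.6, pandas 2.3.3 and matplotlib 3.10.9. Per-sample columns left unused numbered 0.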

Additional observations from a re-analysis of the deposited data

Results flagged for a closer look

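The hybridization controls, which stand outside the gene measurements, were 1.48 log2 units higher on the LC-HFD arrays, with every LC-HFD array (11.5) above every LC-RD array (10.0). The probe set annotated to both Acot2 and Acot1, which the counts of single genes leave out, was higher in LC-HFD by 0.50 (8.44 ± 0.0415 against 7.94 ± 0.0981, SD, n = 3 per group, adjusted p = 0.00533 in limma), more than either gene's own brightest probe set.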

How the results depend on the processing

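Over 17 alternatives without a fold threshold, Pdk4, Ppard, Hadha and Ehhadh passed in the same direction in all 17 and Angptl4 in 16. Pdk4, Hadha and Ehhadh have only 1 probe set each, so the other probe set rules could not change their differences. Angptl4 did not pass when probe sets with the suffixes _a, _s and _x were left out, which leaves its dim probe set (0.20). Acot1 and Pex11a passed in 10, Hadh and Acaa2 in 8, Crat in 6 and Etfdh in 5. With those suffixes left out Hadh turned to -0.10, and 5 genes were higher in place of 8. The number higher was 4 with the 3' minus 5' signal (1.58 to 1.70 in LC-HFD and 1.70 to 1.76 in LC-RD) as a covariate. The number lower, 3 in the main fit, was 6 with the methods' t-test, 8 with the intensity trend, and 7 with a minimum mean log2 value of 4 or of 6. In the same order, 7, 11, 10 and 10 of the genes were higher. Over the array, 3488, 5914, 4826 and 3319 probe sets were higher, against 5111 in the main fit. Lower were 4462, 7873, 6905 and 5423, against 6139. The minimum of 4 left 27595 of the 45037 probe sets, and that of 6 left 15884, with 30 of the 33 genes. Leaving out 1 array gave 4 to 6 higher and 1 to 3 lower, and 2518 to 5469 and 3245 to 6062 probe sets over the array. The gene counts were 4 and 1 without LC-HFD replicate 3 and without each of the LC-RD replicates 1, 2 and 3. In each of these, 5 of the 11 genes still passed. Quantile normalization moved the median difference of the 33 genes from 0.04 to 0.11, while that of the whole array went from 0.04 to 0.02. Over 2-fold, 0 genes were higher and 0 lower by brightest probe set. Deviations of arrays with the same replicate number correlated at -0.09 to -0.03, and those with unlike numbers at -0.04 to 0.08. With 3 arrays per group these correlations cannot show whether same-numbered samples shared a processing step. The replicate block gave 4 higher and 1 lower, and 3461 and 4445 probe sets over the array. The causes of these shifts were not tested.

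Marker lists of other cell types gave, as higher and lower counts, 2 and 0 of 11 for alveolar type II cells, 1 and 2 of 10 for type I cells, 1 and 4 of 10 for club and ciliated cells, 2 and 4 of 11 for endothelium, 2 and 4 of 10 for fibroblasts, 1 and 1 of 8 for lymphocytes, 0 and 2 of 7 for neutrophils and 2 and 0 of 7 for liver. Over all genes 11.1% were higher and 16.2% lower, and 12.1% and 23.4% of those averaging 6 log2 units or more. Whether cell numbers differed was not tested.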
